A study of Mus musculus with 8 samples.

Results

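The 6 genes Cxcr5, Bcl6, Il21, Tox2, Sostdc1 and Izumo1r are marker genes of follicular helper T cells, and they were examined across leukocytes of the mouse submandibular gland and of its draining lymph nodes. They were chosen by symbol and make up 6 of the 32285 genes listed in each matrix. The cells were CD45+ leukocytes from mice aged about 12 weeks, 4 of the SS genotype and 4 controls. The labels list 1 gene expression sample and 1 T cell receptor sample for each combination of genotype (SS or control) and tissue (submandibular gland or lymph node), and do not spell out SS. Glands were digested with collagenase and lymph nodes were triturated, per the labels' protocols, and whether mice were pooled is not stated there.

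The expression matrices carry the names C1 to C4, and neither a label nor a file header says which genotype or tissue each one holds. Each library is therefore described on its own. Genotypes and tissues are not compared, no group has replicates and no test was run. Error is given as the exact 95% interval of a share (Clopper-Pearson) or of a level (Poisson), which covers counting error only and not the spread between mice. Where a count is 0, the limit given is instead that of 3 counts.

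Follicular helper T cells are CD4 T cells that enter B cell follicles and help B cells to form germinal centres. The repressor BCL6 directs their differentiation, the chemokine receptor CXCR5 leads them towards CXCL13 in the follicle, and the cytokine IL-21 is among the signals they give to B cells. TOX2 is an HMG-box transcription factor that acts with BCL6 in this programme in mice and is also found in exhausted CD8 T cells. SOSTDC1 is a secreted antagonist of BMP and WNT signals, and Izumo1r encodes folate receptor 4, a surface protein of regulatory, follicular helper and anergic CD4 T cells in mice. BCL6 and CXCR5 also belong to B cells, and the salivary gland of animals with autoimmune sialadenitis can hold lymphoid follicles.

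Counts are of unique molecular identifiers (UMIs), each standing for 1 captured RNA molecule. A barcode was kept if it held 500 UMIs or more over 300 genes or more, no more than 10% of them mitochondrial. This left 5616, 5067, 8532 and 5957 barcodes in C1 to C4, whose median depth lay between 4939 and 8076 UMIs. Of the 25172 kept barcodes, 307 had a sequence kept in more than 1 library. Barcodes were sorted by a few marker UMIs only. A T barcode had at least 2 UMIs over Cd3d, Cd3e, Cd3g and Trac and at most 1 over a set of B cell marker genes, and it was called Cd4-only or Cd8-only where it held UMIs of Cd4 alone, or of Cd8a or Cd8b1 alone. The converse minima gave B barcodes. In the order C1 to C4 there were 328, 785, 1282 and 1629 Cd4-only T barcodes, 275, 2375, 5319 and 1069 Cd8-only T barcodes, and 118, 39, 721 and 1919 B barcodes. A level is given in CPM, counts per 1000000 UMIs of the gate, in which fewer positive cells and less RNA per cell cannot be told apart.

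The gates were not equally clean in the 4 libraries. The 5 salivary epithelial markers (Klk1, Smgc, Mucl2, Krt18, Epcam) summed to 4939 CPM in Cd4-only T barcodes of C1 and 11680 CPM in C2, against 4.11 CPM in C3 and 2.95 CPM in C4. The 5 macrophage markers (C1qa, C1qb, C1qc, Csf1r, Adgre1) summed to 2612, 1361, 15.03 and 1.57 CPM. None of either list was at 0 in C1 and C2, whereas 3 of the 5 salivary markers in C3 and 2 in C4 were. In the B gate the plasma cell markers (Jchain, Sdc1, Xbp1, Mzb1) reached 41820 CPM in C1 and 46275 CPM in C2, against 6437 CPM in C3 and 524 CPM in C4, so the B gates of C1 and C2 are few barcodes rich in plasma cell RNA. The part of these RNAs in the values of the 6 genes was not tested beyond the alternatives given in the closing section.

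Free RNA was measured in barcodes of 50 to under 200 UMIs, which held 6039357, 8212751, 309308 and 85736 UMIs in C1 to C4. In C1 and C2 no member was above 10.5 CPM in it. In C3 it held 51.7 CPM of Izumo1r (29.6 to 84.0, on 16 UMIs), 16.2 CPM each of Cxcr5 and Tox2 (5.25 to 37.7, on 5 UMIs) and 12.9 CPM of Bcl6 (on 4 UMIs). Il21 and Sostdc1 rested on 2 and 1 UMIs there. All 6 members were higher in it than in the Cd8-only T barcodes of that library. The free RNA intervals of Cxcr5, Bcl6 and Sostdc1 took in the Cd8-only levels (11.5, 3.72 and 0.121 CPM). In C4 it held 11.7 CPM of Cxcr5, 23.3 CPM of Tox2 and 35.0 CPM of Izumo1r, on 1, 2 and 3 UMIs, of which the first 2 lay above the levels of both T gates. The part of free RNA in the gates' values was not tested.

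The genes lie on 5 chromosomes of the mm10 build (RefSeq, GRCm38.p6). Cxcr5 (ENSMUSG00000047880) spans chr9:44511787-44526444 and Izumo1r (ENSMUSG00000031933) chr9:14885814-14903951. Bcl6 (ENSMUSG00000022508) spans chr16:23965050-23988866, Il21 (ENSMUSG00000027718) chr3:37222759-37232636, Tox2 (ENSMUSG00000074607) chr2:163203058-163324172 and Sostdc1 (ENSMUSG00000036169) chr12:36314169-36318452. All 6 are protein-coding genes.

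RefSeq promoter sequences, from 250 bases before to 50 after a transcription start, were matched for 4 of the 6 genes (Bcl6, Il21, Tox2 and Izumo1r), with 9 starts in all. They are shown because these genes were found together in Cd4-only T barcodes, and because factors of T cell activation and of the follicular helper programme are known to bind the motifs searched. The letters searched, on both strands and with N for any base, were TTTCCA for the activation factor NFAT. For the cytokine-driven STAT factors they were TTCNNNGAA. For TCF/LEF, the family of TCF-1, they were CTTTGAT. For the AP-1 factors they were TGANTCA. Among the 32851 mouse promoters of the same table, 21.4% held the NFAT letters, 8.30% the STAT letters, 3.73% the TCF/LEF letters and 7.81% the AP-1 letters. Below are the promoters of Il21 (chr3:37232587-37232886, minus strand), Izumo1r (chr9:14903718-14904017, minus strand), 1 of the 2 starts of Bcl6 (chr16:23981234-23981533, minus strand) and 1 of the 5 starts of Tox2 (chr2:163225203-163225502, plus strand), written 5′ to 3′ with motif matches in capitals.
Il21: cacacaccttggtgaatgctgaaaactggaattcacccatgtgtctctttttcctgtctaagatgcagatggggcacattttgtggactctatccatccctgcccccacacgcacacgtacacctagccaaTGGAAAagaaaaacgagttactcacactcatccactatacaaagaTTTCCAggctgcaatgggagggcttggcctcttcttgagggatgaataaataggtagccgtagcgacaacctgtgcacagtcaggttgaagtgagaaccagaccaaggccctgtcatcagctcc
Izumo1r: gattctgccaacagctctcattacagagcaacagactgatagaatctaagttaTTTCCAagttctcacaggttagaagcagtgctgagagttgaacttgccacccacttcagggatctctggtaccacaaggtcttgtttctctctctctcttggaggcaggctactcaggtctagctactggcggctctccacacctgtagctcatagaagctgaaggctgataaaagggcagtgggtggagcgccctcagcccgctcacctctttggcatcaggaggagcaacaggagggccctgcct
Bcl6: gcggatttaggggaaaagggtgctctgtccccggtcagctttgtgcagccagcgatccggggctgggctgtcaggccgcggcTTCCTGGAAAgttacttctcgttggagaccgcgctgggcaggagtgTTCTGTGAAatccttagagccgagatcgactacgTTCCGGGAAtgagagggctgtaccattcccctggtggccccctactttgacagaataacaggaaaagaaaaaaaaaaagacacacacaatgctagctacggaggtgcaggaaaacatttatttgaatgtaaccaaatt
Tox2: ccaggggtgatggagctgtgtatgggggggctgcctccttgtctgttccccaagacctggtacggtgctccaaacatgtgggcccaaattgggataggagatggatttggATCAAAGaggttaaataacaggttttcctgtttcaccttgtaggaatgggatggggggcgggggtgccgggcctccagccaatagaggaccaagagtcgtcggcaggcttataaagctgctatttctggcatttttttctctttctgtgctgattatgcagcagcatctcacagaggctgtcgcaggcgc
The Il21 promoter held 2 NFAT matches and the Izumo1r promoter 1. The Bcl6 sequence held 3 STAT matches and 1 NFAT match, which overlaps a STAT match, and the Tox2 sequence held 1 TCF/LEF match. Of these genes' starts, the ones shown hold the most matches: the other Bcl6 start held 1 STAT match and no NFAT match, 3 of the 5 Tox2 starts held no match of any motif, and the remaining Tox2 start lies 1 base from the one shown and holds the same match. None of the 9 promoters held the AP-1 letters. A match says only that the letters occur in the window.

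Il21, the cytokine, was found mainly in Cd4-only T barcodes in C1, C2 and C3, which held 81.1%, 53.4% and 74.1% of its UMIs, and was scarce in C4. Its level in Cd4-only T barcodes was 27.8 CPM in C1 (95% interval 21.2 to 35.8), 14.1 CPM in C2 (10.8 to 18.1), 33.2 CPM in C3 (29.5 to 37.3) and 0.885 CPM in C4 (0.405 to 1.68). The intervals of C1 and C3 overlapped, C2 lay below both, and C4 was lowest. A UMI was found in 19 of 328 barcodes in C1 (5.79%), 38 of 785 in C2 (4.84%), 102 of 1282 in C3 (7.96%) and 5 of 1629 in C4 (0.307%). In C1 10 barcodes held 51 of the 60 Il21 UMIs (85.0%), and in C3 the top 10 held 38.2%, with 21 in 1 barcode. Cd8-only T barcodes of C1 to C4 held 0, 13, 31 and 1 UMIs, or at most 0.884 CPM. T barcodes with UMIs of both Cd4 and Cd8a or Cd8b1 held 4.05%, 25.0%, 8.64% and 7.41% of the Il21 UMIs of C1 to C4. Over the B gates 1 Il21 UMI was found, in C4. No macrophage or NK barcode of any library held one, and 0 of 2646 macrophage barcodes in C1 allows a share of up to 0.113%, at a median of 6178 UMIs against 5425.5 UMIs for the Cd4-only T barcodes there.

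Sostdc1, the secreted BMP and WNT antagonist, was found in few barcodes, many of which held several UMIs of it. Its level in Cd4-only T barcodes was 0 in C1 (0 UMIs, which allows up to 1.39 CPM), 82.8 CPM in C2 (74.5 to 91.8), 77.4 CPM in C3 (71.6 to 83.5) and 1.38 CPM in C4 (0.753 to 2.31). C2 and C3 overlapped and stood far above C1 and C4. The RNA came from 32 of 785 barcodes in C2 (4.08%), 97 of 1282 in C3 (7.57%) and 3 of 1629 in C4 (0.184%). A positive barcode held 11.3 UMIs on average in C2 and 6.79 in C3, with maxima of 47 and 39, and 10 barcodes held 65.3% of the Sostdc1 UMIs of the C2 gate. Thinning every barcode to 3000 UMIs left the share at 4.10% in C2 and 6.55% in C3. No B or NK barcode held a Sostdc1 UMI, among 1919 B barcodes in C4 and 1121 NK barcodes in C1. Cd8-only T barcodes with one numbered 0, 4, 2 and 0. T barcodes with UMIs of both Cd4 and Cd8a or Cd8b1 held 13.7% of the Sostdc1 UMIs in C2 and 26.5% in C3. In C1, 30 of the gene's 34 UMIs lay in 5 barcodes that passed none of the marker gates.

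Cxcr5, the follicle-homing receptor, was found in B barcodes of all libraries and, among Cd4-only T barcodes, mostly in C3. Its level in Cd4-only T barcodes was 2.32 CPM in C1 (0.752 to 5.41), 12.1 CPM in C2 (9.06 to 15.8), 47.7 CPM in C3 (43.2 to 52.6) and 6.0 CPM in C4 (4.59 to 7.71). C3 stood above the other libraries, and C1 and C4 overlapped. The share of barcodes with a UMI was 1.52%, 5.61%, 17.5% and 2.46%. In B barcodes the level was 43.6 CPM in C1, 11.6 CPM in C2, 75.5 CPM in C3 and 115 CPM in C4, and the share 33.1%, 10.3%, 43.7% and 35.3%. Macrophage barcodes, which should lack the gene, held 0 UMIs in all 4 libraries, including 2646 barcodes of C1. Cd8-only T barcodes held it as well, at 0, 5.58, 11.5 and 8.33 CPM, with shares of 0%, 3.12%, 8.50% and 5.33%. In C4 the Cd8-only level (6.48 to 10.5) was not below the Cd4-only level.

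Cxcr5 in Cd8-only T barcodes was also counted by B marker UMIs, a split that was added once its values were known. The gate allows at most 1 such UMI, so barcodes with more are not covered. Among Cd8-only T barcodes of C3 with 1 B marker UMI, 46 of 638 (7.21%) held Cxcr5, against 406 of 4681 (8.67%) with none. In C4 the counts were 8 of 151 (5.30%) and 49 of 918 (5.34%). Free RNA held Cxcr5 at 16.2 CPM in C3 (5.25 to 37.7, on 5 UMIs) and 11.7 CPM in C4 (0.295 to 65.0, on 1 UMI). These wide intervals take in the Cd8-only levels of 11.5 and 8.33 CPM. The part of B cell RNA or free RNA in these levels was not tested.

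Izumo1r, the folate receptor 4 gene, was found in more Cd4-only T barcodes than any other of the 6 genes in every library. Its level was 76.0 CPM in C1 (64.8 to 88.5), 101 CPM in C2 (91.7 to 111), 315 CPM in C3 (303 to 327) and 169 CPM in C4 (162 to 178). The 4 intervals did not overlap. A UMI was found in 25.6%, 28.9%, 53.1% and 35.4% of barcodes. The gene was absent from the B gates of C1, C2 and C3 and present in 6 of 1919 B barcodes of C4 (0.313%). Cd8-only T barcodes held 3.14, 18.2, 7.78 and 36.6 CPM, with shares of 1.82%, 8.34%, 3.06% and 13.2%, beside 1.16, 2.56, 51.7 and 35.0 CPM in free RNA.

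Izumo1r was also found beside Foxp3, the lineage factor of regulatory T cells. In C2, 33 of 43 Cd4-only barcodes with a Foxp3 UMI held Izumo1r (76.7%) against 194 of 742 without (26.1%), and in C4 89 of 112 (79.5%) against 487 of 1517 (32.1%). In C3 the shares were 33 of 57 (57.9%) and 648 of 1225 (52.9%), and in C1 5 of 6 and 79 of 322. The difference was wide in C2 and C4 and narrow in C3. Cxcr5 in C4 was in 11 of 112 Foxp3 barcodes (9.82%, 5.01 to 16.9) against 29 of 1517 without (1.91%). Its shares were 2.33% against 5.80% in C2 and 17.5% in both sets of C3. Tox2 in C2 was in 18 of 43 Foxp3 barcodes (41.9%, 27.0 to 57.9) against 22.6%. Its shares were 22.8% against 26.0% in C3 and 1.79% against 1.71% in C4. Il21 was found in 0 of 6, 0 of 43, 1 of 57 and 0 of 112 Foxp3 barcodes, against 5.90%, 5.12%, 8.24% and 0.330% of those without Foxp3. The exact interval of the Foxp3 share took in the share without Foxp3 in all 4 libraries, so no difference was detectable at these numbers. Without Foxp3 barcodes the Izumo1r level was 88.8 CPM in C2 and 133 CPM in C4, against 101 and 169 CPM with them.

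Bcl6, the repressor, was found in T, B, NK and macrophage barcodes alike. Its level in Cd4-only T barcodes was 20.4 CPM in C1 (14.8 to 27.4), 17.6 CPM in C2 (13.9 to 22.0), 32.9 CPM in C3 (29.1 to 37.0) and 11.1 CPM in C4 (9.16 to 13.4). C3 was highest, C1 and C2 overlapped, and C4 was lowest. The shares were 9.15%, 6.50%, 13.7% and 5.65%. Macrophage barcodes held 49.9 CPM in C1, 49.8 CPM in C2 and 50.1 CPM in C3, and macrophages gave 64.0% of all 1357 Bcl6 UMIs of C1. NK barcodes held 27.4 CPM in C1 and 26.8 CPM in C2. In C1 the Cd8-only T level, 19.3 CPM, did not differ from the Cd4-only level beyond the intervals. Without barcodes that held a C1qa, C1qb, C1qc or Csf1r UMI it was 11.8 CPM.

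In B barcodes Bcl6 was at 14.1, 5.78, 57.6 and 74.8 CPM. In C3 and C4, the libraries with many B barcodes, it was found more often beside a set of 6 germinal centre genes, in a split chosen after values were seen. In C3, 94 of 141 B barcodes with at least 2 of these 6 genes held Bcl6 (66.7%, 109 CPM), against 85 of 580 with fewer (14.7%, 26.7 CPM). In C4 the counts were 55 of 73 (75.3%, 172 CPM) and 352 of 1846 (19.1%, 61.4 CPM). Median depth was 14008 against 4848 UMIs in C3 and 10461 against 3857 in C4. Bcl6 is a marker gene of germinal centre B cells, as are the 6 genes of the split. Cxcr5 CPM ran the other way in the same split, at 65.8 against 81.3 CPM in C3 and 58.9 against 122 CPM in C4, although more of the germinal centre barcodes, which hold more UMIs, had a Cxcr5 UMI.

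Tox2, the HMG-box factor, was found in Cd4-only T barcodes of all libraries and in Cd8-only T barcodes of C2. Its Cd4-only level was 13.4 CPM in C1 (9.0 to 19.3), 60.7 CPM in C2 (53.6 to 68.4), 67.5 CPM in C3 (62.1 to 73.3) and 5.70 CPM in C4 (4.33 to 7.37). C2 and C3 overlapped and lay above C1 and C4. Its Cd8-only level was 0.898, 62.2, 2.91 and 0.242 CPM, with UMIs in 2 of 275, 572 of 2375, 104 of 5319 and 2 of 1069 barcodes. In C2 both T gates held the gene at the same share within counting error, 23.7% (20.8 to 26.8) and 24.1% (22.4 to 25.9). Free RNA held 10.5 CPM of Tox2 in C2, and 16.2 CPM in C3, above the Cd8-only level there. In C2 macrophage barcodes held it in 2 of 403 (0.496%) at a higher median depth of 8853 UMIs.

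Tox2 was found more often in Cd8-only T barcodes with inhibitory receptor genes or Tox in C2 and C3, in a split chosen after values were seen. In C2, 525 of 1653 Cd8-only barcodes with at least 3 of Pdcd1, Lag3, Havcr2, Tigit and Tox held Tox2 (31.8%, 76.4 CPM), against 47 of 722 with fewer (6.51%, 16.6 CPM). In C3 the counts were 62 of 221 (28.1%, 39.8 CPM) and 42 of 5098 (0.824%, 1.1 CPM). Median depth was 5447 against 4600 UMIs in C2 and 7093 against 8947 in C3. In C1 none of 43 such barcodes held it, and C4 had 7 such barcodes, none with Tox2. Tox2 was also found in germinal centre-type B barcodes of C4, in 19 of 73 with at least 2 of the 6 germinal centre genes and 0 of 1846 with fewer. In C3 the counts were 2 of 141 and 3 of 580.

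**Figure D1:**
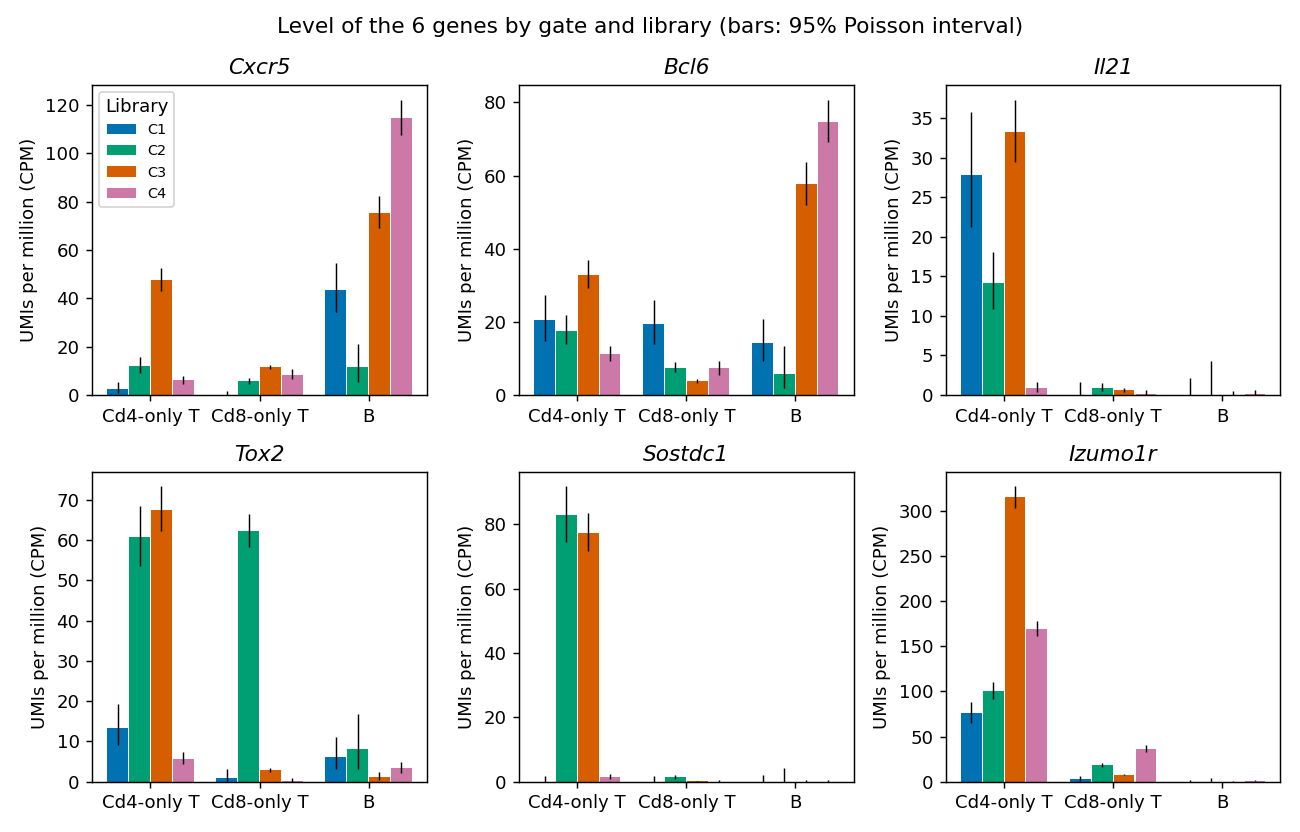
Level of each gene (y axis, CPM of the gate, linear from 0, a scale of its own per panel) in Cd4-only T, Cd8-only T and B barcodes of the 4 libraries; bars are the level and black lines its exact 95% Poisson interval. Among the gates shown, Il21 and Sostdc1 stand almost only in the Cd4-only T gate. Cxcr5 and Bcl6 reach 115 and 74.8 CPM in B barcodes of C4, and Tox2 stands at about the same height in both T gates of C2.

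**Figure D2:**
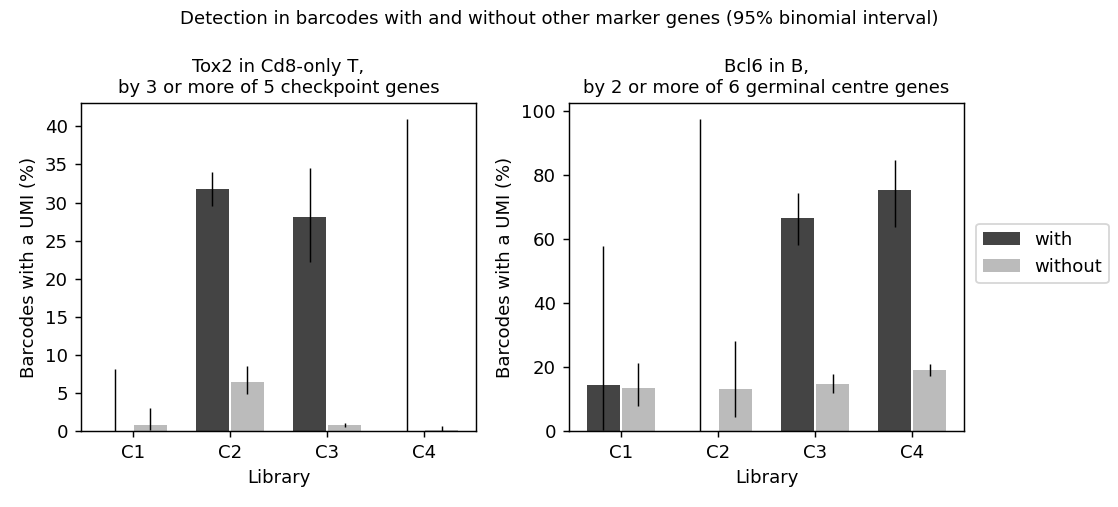
Share of barcodes with a UMI (y axis, percent, from 0) of Tox2 in Cd8-only T barcodes with and without at least 3 of 5 checkpoint genes (left) and of Bcl6 in B barcodes with and without at least 2 of 6 germinal centre genes (right), by library; black lines are exact 95% binomial intervals. The dark bar stands above the light one for Tox2 in C2 and C3 and for Bcl6 in C3 and C4, and the intervals are wide where few barcodes carry the other genes.

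Against Cd8-only T barcodes of the same library, the 6 genes leaned to the Cd4-only gate. Genes with at least 20 UMIs over both gates were compared, and 2-fold was taken as the call. In C1, 3 of the 4 members past that minimum were at least 2-fold higher in the Cd4-only gate, where 5.8% of all 9692 genes were. In C2 5 of 6 were, against 7.82% of 11574 genes, in C3 6 of 6, against 17.8% of 12462, and in C4 2 of 4, against 4.9% of 10862. No member past the minimum was 2-fold lower in any library, a call that held for 2.88%, 3.08%, 5.86% and 3.57% of all genes. The list was chosen with earlier results of these data known, so these counts are a description.

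The sizes differed widely between the genes. Izumo1r was 24.2-fold higher in the Cd4-only gate in C1, 5.55-fold in C2, 40.5-fold in C3 and 4.63-fold in C4. Il21 was at least 20.6-fold higher in C1, where the Cd8-only gate held no UMI and was set to 3 counts, and 16.0-fold in C2 and 53.1-fold in C3, with 10 UMIs over both gates of C4. Sostdc1 was 57.99-fold higher in C2 and 638-fold in C3, the second on 6 UMIs in 2 Cd8-only barcodes. Tox2 was 14.96-fold higher in C1, 23.2-fold in C3 and 23.6-fold in C4, while in C2 its ratio was 0.975. Bcl6 ratios were 1.06, 2.35, 8.84 and 1.53. Cxcr5 ratios in C2 to C4 were 2.17, 4.15 and 0.720, with 5 against 0 UMIs in C1.

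Summed over the 6 genes, the Cd4-only T level was 139.9 CPM in C1 (124.6 to 157), 288 CPM in C2 (272 to 304), 574 CPM in C3 (558 to 589.9) and 195 CPM in C4 (186 to 203). Without Izumo1r the sums were 63.9, 187, 259 and 25.1 CPM. C3 was highest by both sums, and C4 stood above C1 by the first and below it by the second. T barcodes with neither Cd4 nor Cd8 UMIs, in which a Cd4 UMI may have been missed, held 33.9, 110.2, 367 and 185 CPM over the 6 genes. B barcodes held 63.9, 25.4, 134 and 194 CPM over the 6 genes, and 63.9, 25.4, 134 and 193 CPM without Izumo1r. Without Izumo1r the B sum was thus above the Cd4-only sum in C4 and level with it in C1.

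Barcodes with several members were most frequent in C3. At least 1 of the 6 genes was found in 129 of the 328 Cd4-only T barcodes in C1 (39.3%), 401 of the 785 in C2 (51.1%), 898 of the 1282 in C3 (70.0%) and 640 of the 1629 in C4 (39.3%). At least 2 were found in 23 barcodes of C1 (7.01%, 4.50 to 10.3), 140 of C2 (17.8%, 15.2 to 20.7), 442 of C3 (34.5%, 31.9 to 37.2) and 80 of C4 (4.91%, 3.91 to 6.08). C3 held the largest share and C2 the next, and C1 and C4 overlapped. At least 4 were found in 1, 4, 64 and 3 barcodes, and all 6 in 3 barcodes, which were in C3. With each barcode thinned to 3000 UMIs the share with at least 2 was 3.54%, 8.49%, 20.7% and 2.61%, in the same order. In Cd8-only T barcodes at least 2 were found in 0%, 5.64%, 1.58% and 2.15%, at higher median depths (5138 to 8908 UMIs) than the Cd4-only gate (4481 to 5852 UMIs). B barcodes with at least 2 made up 5.08%, 2.56%, 14.7% and 9.12% of the B gates. In C4 the B share was above the Cd4-only share, also after thinning (5.84% against 2.61%).

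**Figure D3:**
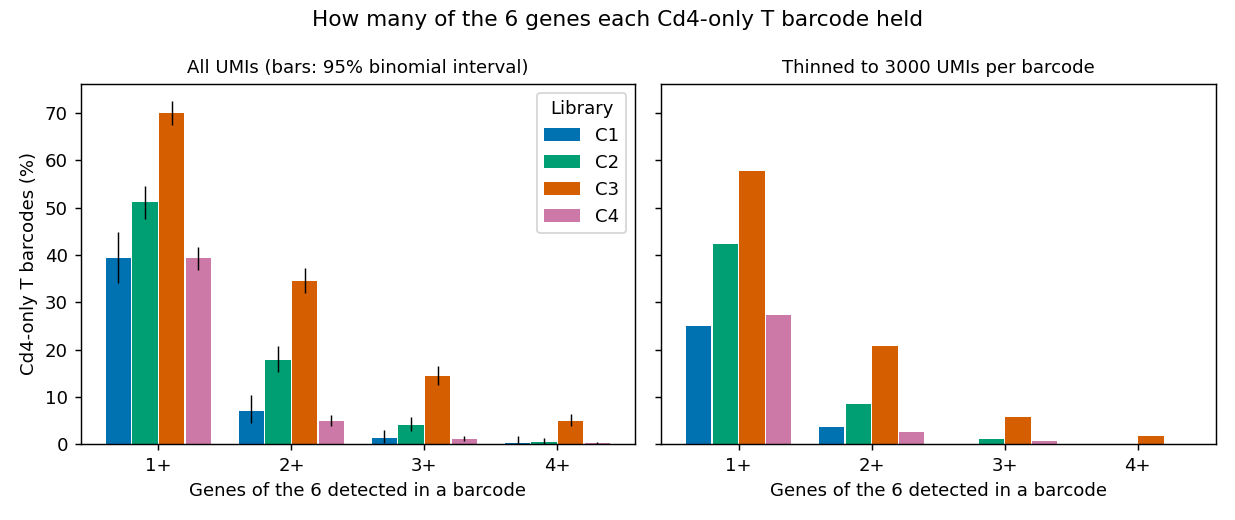
Share of Cd4-only T barcodes (y axis, percent, from 0) that held at least 1, 2, 3 or 4 of the 6 genes (x axis), by library, from all UMIs with exact 95% binomial intervals (left) and after thinning each barcode to 3000 UMIs (right). C3 is highest at each step in both panels, with 34.5% at 2 or more before thinning and 20.7% after.

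Izumo1r was the most frequent sole member among barcodes that held exactly 1 of the 6 genes, with 65 of 106 in C1, 116 of 261 in C2, 299 of 456 in C3 and 498 of 560 in C4. In C2 Tox2 was the next most frequent sole member, with 87. Cxcr5 and Bcl6, the receptor and the factor by which follicular helper cells are usually defined, were found together in 1, 1, 48 and 9 Cd4-only barcodes of C1 to C4, and together with Il21 in 0, 1, 14 and 2. In C2, 1 of 44 Cxcr5 barcodes held Bcl6 (2.27%), against 6.75% of those without Cxcr5. The exact interval of the C2 share took in 6.75%, so no difference was detectable there. In C3 48 of 224 Cxcr5 barcodes held Bcl6 (21.4%), against 12.0%, and after thinning 12.1% against 6.90%. In C4 9 of 40 did (22.5%), against 5.22%. C2, whose Tox2 and Sostdc1 levels overlapped those of C3, thus had 1 barcode with the Cxcr5 and Bcl6 pair.

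Over all 15 pairs, the share of barcodes with 1 gene was higher beside the other than without it in 15 pairs in C3, 14 in C2 and 12 in C4, and in 8 of the 10 pairs of C1 that could be formed without Sostdc1, which had no UMI there. After thinning the counts were 15, 11, 12 and 4. In Cd8-only T barcodes of C1 to C4 the counts were 0 of 3, 8 of 15, 13 of 15 and 3 of 10 pairs. After thinning those were 0, 6, 10 and 1. Pairs of other genes were not counted. Depth raises the detection of every gene at once, and thinning takes that out only in part. In C3 Il21 and Cxcr5 were found together in 34 barcodes: 33.3% of 102 Il21 barcodes held Cxcr5 against 16.1% of the others, and after thinning 33.3% against 9.05%. Sostdc1 in C3 went with Izumo1r, at 78 of 97 barcodes (80.4%) against 50.9%, and with Bcl6, at 32 of 97 (33.0%) against 12.1%. With Cxcr5 it went less, at 20 of 97 (20.6%) against 17.2%. In C4 Tox2 and Izumo1r were found together in 24 of 28 Tox2 barcodes (85.7%) against 34.5%, and Tox2 with Cxcr5 in 9 of 28 (32.1%) against 1.94%.

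**Figure D4:**
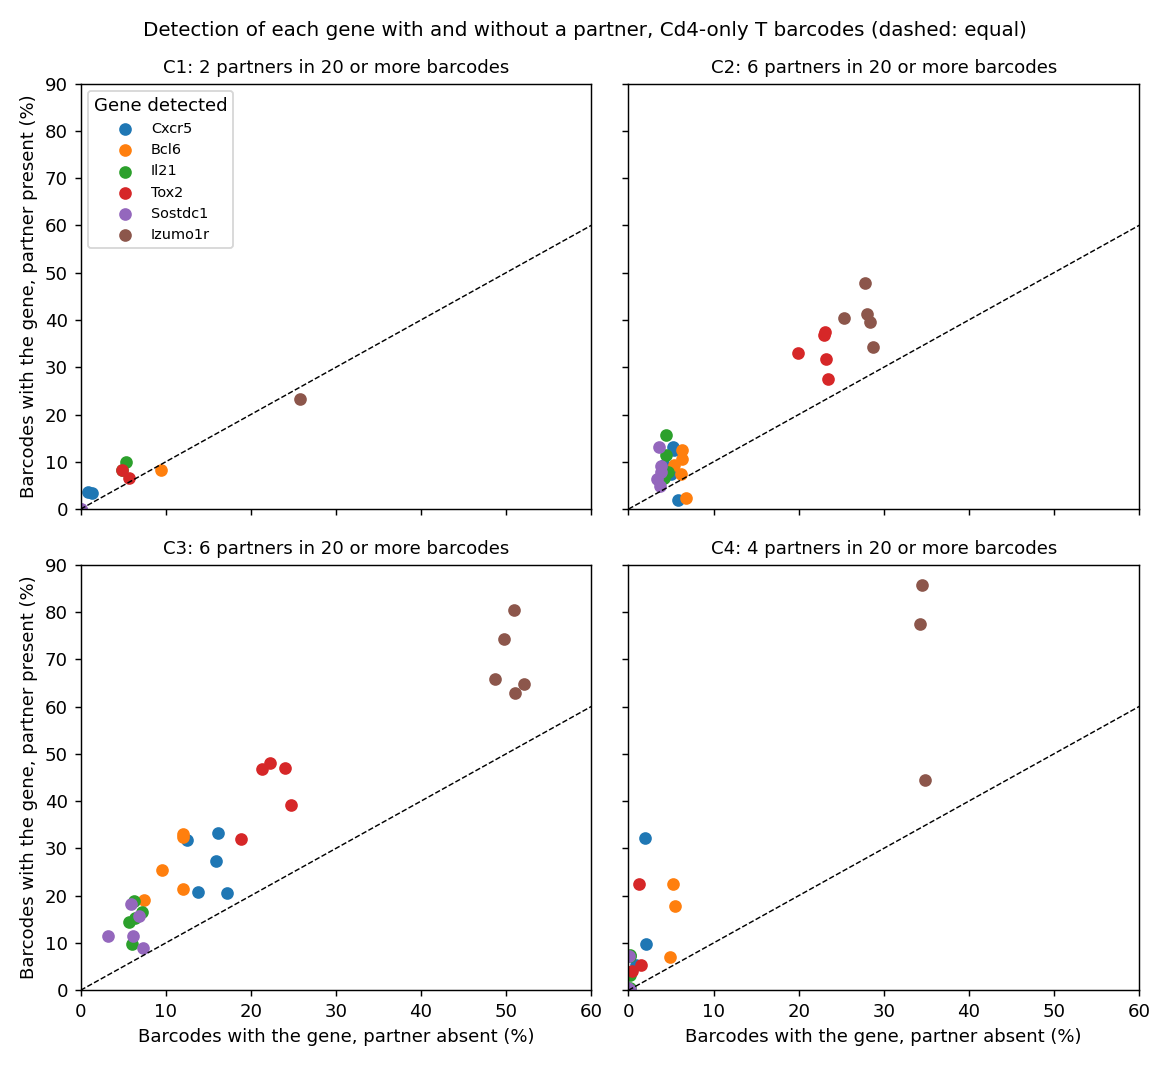
For Cd4-only T barcodes of each library, the share of barcodes with a gene when a partner gene is present (y axis, percent) against the share when that partner is absent (x axis, percent), for partners found in at least 20 barcodes; each point is 1 ordered pair, coloured by the gene detected, and the dashed line marks equal shares. All points of C3 lie above the line. In C2 the pair of Cxcr5 and Bcl6 lies below it (2.27% against 6.75%), on 1 joint barcode and within counting error.

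Several members were found more often beside Pdcd1. In C3 Cd4-only barcodes with a UMI of Pdcd1, the PD-1 gene that marks follicular helper and exhausted T cells, 112 of 359 held Cxcr5 (31.2%) against 12.1% of the others. Il21 was at 18.1% against 4.01%, Tox2 at 41.8% against 19.6% and Sostdc1 at 15.3% against 4.55%. Median depth was 6461 UMIs in the first set and 4711 in the second. In C2 the Il21 shares were 34 of 461 (7.38%) with Pdcd1 and 4 of 324 (1.23%) without, at close depths of 4775 and 4304 UMIs. In C1 they were 12 of 94 (12.8%) and 7 of 234 (2.99%), while no Pdcd1 barcode there held Cxcr5. In C2 Cxcr5 was at 6.29% with Pdcd1 and 4.63% without. In C1 Tox2 was at 5.32% with Pdcd1 and 5.98% without. Izumo1r in C3 was at 63.2% against 49.2% by share, but at 295 against 327 CPM by level. In C4 13 of 65 Pdcd1 barcodes held Cxcr5 (20.0%), against 1.73% of the others, at depths of 7514 and 5808 UMIs.

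A list of 58 further genes of the follicular helper programme and of its alternatives was compared between Cd4-only T barcodes with at least 2 members and those with none, in each library. The sets held 23 and 199 barcodes in C1, 140 and 384 in C2, 442 and 384 in C3, and 80 and 989 in C4, with higher median depth in the first set, by most in C3 (6319 against 4161 UMIs). Of the list, 43, 49, 51 and 45 genes had at least 20 UMIs. In C1 to C4, 8, 10, 8 and 20 list genes were at least 2-fold higher, where 5.59%, 7.52%, 7.38% and 9.13% of all genes were. At least 2-fold lower were 5, 5, 6 and 6, against 10.4%, 3.45%, 2.87% and 5.06% of all genes.

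Klf2 and S1pr1, genes of recirculating T cells, were lower in barcodes with members in every library. Klf2, a factor that keeps T cells recirculating and opposes the follicular helper fate in mice, was at 269 against 603 CPM in C1, 271 against 580 in C2, 220.2 against 742 in C3 and 306 against 714 in C4. S1pr1, the egress receptor that KLF2 induces, was at 20.1 against 80.2 CPM, 52.1 against 154, 59.6 against 229 and 96.8 against 272. These were the 2 genes of the list past 2-fold lower in all 4 libraries. In C1 the S1pr1 level of 20.1 CPM rested on very few UMIs, since the set held 148961 UMIs over 23 barcodes. In that library 10.4% of all genes were at least 2-fold lower. Il7r, the IL-7 receptor gene of resting T cells, was lower past 2-fold in C2, C3 and C4 (ratios 0.343, 0.293 and 0.460), and Ccr7, the lymph node homing receptor, in C3 and C4 (0.496 and 0.479) but not in C1 and C2 (1.54 and 1.79). Ccr7 was named after its values were seen. In C1 its 24 UMIs in barcodes with at least 2 members lay in 3 barcodes, with 20 of them in 1 barcode. Gpr183, which guides cells to the outer follicle, was past it in C2 alone (0.397), and Id2, an inhibitor of E proteins, in C3 alone (0.465). In this sub-list of 11 genes the median log2 ratio was -0.01, -0.62, -1.01 and -1.06, beside -0.00, 0.03, 0.07 and 0.18 for all genes.

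Surface partners were higher in some libraries only. Of 12 genes (Pdcd1, Icos, Cd40lg, Sh2d1a, Slamf6, Btla, Cd200, Tnfsf8, Tnfrsf4, Cd84, Cd28, Ctla4), 0 of 10 tested were past 2-fold higher in C1, 4 of 12 in C2, 3 of 12 in C3 and 7 of 12 in C4, and none was 2-fold lower. Tnfrsf4, the OX40 gene, was at 322 against 164 CPM in C1, 642 against 135 in C2, 298 against 167 in C3 and 148 against 26.2 in C4. Icos, a costimulatory receptor needed for follicular helper cells, had ratios of 1.36, 0.774, 1.94 and 4.58, and Ctla4, an inhibitory receptor, of 1.57, 1.26, 1.41 and 5.35. Cd28 stayed within 2-fold in all 4 libraries. Pdcd1, outside the rule for named genes and added after its values were seen, was at 87.3 against 83.5 CPM in C1, 361 against 326 in C2, 164 against 40.8 in C3 and 111 against 2.79 in C4.

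Among 10 transcription factors, 2 of 8 tested were 2-fold higher in C1, 0 of 8 in C2, 2 of 9 in C3 and 5 of 9 in C4, with 2 lower in C1. Batf, an AP-1 family factor of follicular helper cells, had ratios of 2.03, 1.71, 1.75 and 2.89. Maf, which drives Il21, was 10.0-fold higher in C4 (164 against 16.4 CPM) and within 2-fold elsewhere. Tcf7, the TCF-1 gene, was within 2-fold in all libraries (0.755, 0.684, 1.04 and 0.930), and so was Stat3, the signal transducer of IL-6 and IL-21 (1.14, 1.30, 1.25 and 1.43). Receptors for IL-21 stayed within 2-fold: Il21r had ratios of 0.889, 1.01, 1.12 and 0.738 and Il2rg, the common gamma chain, of 0.828, 0.982, 0.825 and 0.845. Il6ra and Il6st, the receptor pair for IL-6, were past 2-fold higher in C1 (2.41 and 2.84, on 15 and 6 UMIs) and in no other library.

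Cytokines other than Il21 differed by library. Il10 was higher in C1 (5.02) and C2 (2.29) and within 2-fold in C3 (1.31). Il17a, the cytokine of TH17 cells, was past 2-fold lower in C2 (11.1 against 202 CPM), and was at 1161 against 1309 CPM in C1. Ifng was at 967 against 317 CPM in C1, 174 against 245 in C2, 45.4 against 69.7 in C3 and 10.8 against 3.14 in C4, the last on 7 and 18 UMIs. Il2 was within 2-fold in C1, C2 and C3. Il4, named after its values were seen, held 91 against 0 UMIs in C3, at least 13.8-fold higher, and 21 against 2 in C4, in 39 of 442 and 5 of 80 barcodes, and 1 against 0 UMIs in C2. In C1 it held 1 against 21 UMIs (6.71 against 17.5 CPM), in 1 of 23 and 8 of 199 barcodes. The interval of the first level, 0.17 to 37.4 CPM, took in the second, so no difference was detectable there.

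Regulatory T cell genes were higher with the members in C2 and C4. Izumo1r, found in 76.7% and 79.5% of the Foxp3 barcodes there, is 1 of the genes that define the sets. The counts below are therefore not independent of that choice. Of 6 genes, 0 of 3 tested were 2-fold higher in C1, 4 of 6 in C2, 1 of 6 in C3 and 4 of 5 in C4. Il2ra, the CD25 gene, had ratios of 5.74 in C2, 1.96 in C3 and 6.47 in C4, and Ikzf2, the Helios gene, of 1.46, 1.76, 1.72 and 6.96. Il1r2, a decoy receptor for IL-1, was at 127 against 10.7 CPM in C2 and 177 against 68.6 in C3. Tnfrsf18, the GITR gene, stayed within 2-fold in all 4. With Foxp3 barcodes left out, 6 genes of the whole list instead of 10 were higher in C2, 11 instead of 8 in C3, 19 instead of 20 in C4 and 8 in C1 as before. Of the regulatory genes, 1 of 3 tested was then higher in C2, where 3 fell below the 20-UMI minimum, 2 of 5 in C3 and 3 of 4 in C4. Of all genes, 5.38%, 7.02%, 7.59% and 9.87% were then higher in C1 to C4, and 11.3%, 3.76%, 3.03% and 5.54% lower.

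Mki67, the proliferation marker and a member of the germinal centre list, was 2-fold higher with the members in all 4 libraries, at 154 against 30.1 CPM in C1, 173 against 82.1 in C2, 189 against 23.8 in C3 and 38.4 against 3.84 in C4. Of the other named germinal centre genes, Mef2b, Rgs13 and Nuggc held at most 2 UMIs on either side in any library. Beyond the lists, 997 genes could be ranked by their lowest ratio over the libraries, and the 10 leading ones were Hist1h2ap, Hist1h2ae, Hist1h1b, Tuba1b, Top2a, Mki67, Dut, Trib1, Tnfsf8 and Tpi1. The first 7 are genes of histones, of tubulin or of DNA synthesis and division. Hist1h2ap, a replication-dependent histone gene, had ratios of 21.2, 3.74, 8.33 and 7.71, and Top2a, the topoisomerase of dividing cells, of 6.89, 2.23, 5.24 and 7.21. Tnfsf8, the CD30 ligand gene, had ratios of 1.96, 3.97, 2.51 and 4.76. Without barcodes with an Mki67 or Top2a UMI, an alternative added after these values were seen, the share of Cd4-only T barcodes with at least 2 members stayed within its interval in all 4 libraries.

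**Figure D5:**
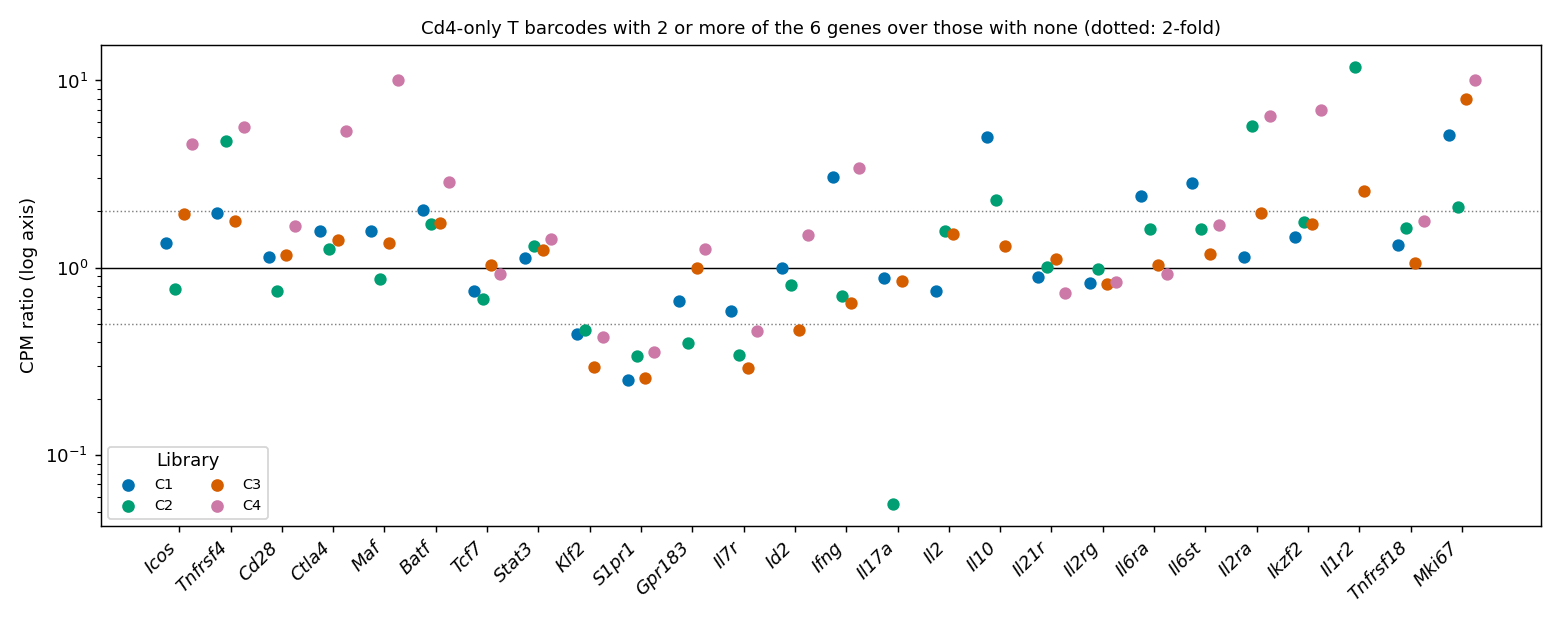
Ratio of CPM in Cd4-only T barcodes with at least 2 of the 6 genes over those with none (y axis, log scale) for the named genes of the 58-gene list that had at least 20 UMIs in at least 1 library (x axis), 1 point per library; dotted lines mark 2-fold in either direction. Klf2 and S1pr1 lie below the lower line and Mki67 above the upper line in all 4 libraries, while the points of C4 lie highest for Icos, Maf and Ctla4.

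Across 22 profiles, each 1 gate of 1 library with at least 100 barcodes, the genes closest in pattern to each member were ranked by Pearson's r of log2(CPM + 1), as a description, since profiles of 1 library share depth and free RNA. Sostdc1 was closest to Bace2 (r = 0.94), Foxs1 and Gm49180, Tox2 to Gpm6b (0.92), Gm11454 and 1700019D03Rik, and Il21 to Clip3 (0.92), Spock2 and Csgalnact1. Izumo1r was closest to Tnfrsf25 (0.97), Trbv2 and Trat1, Cxcr5 to Farsb (0.89), Btla and Rdh12, and Bcl6 to Zfp106 (0.90), Bmp2k and Nt5c2. Several of these are scarce: the highest level of Foxs1 was 3.88 CPM and of Gm49180 1.64 CPM. Among the members themselves, Il21 and Tox2 had r = 0.82 and Tox2 and Sostdc1 0.79, while Bcl6 had r = 0.04 with Cxcr5 and -0.22 with Tox2.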

How the data were processed

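UMI count matrices of 4 libraries were deposited by the authors, made with Cell Ranger per the file headers (version 4). The submitters' processing notes name Cell Ranger 6.1.2, STAR 2.7.10a and mm10, and the labels name both the BD Rhapsody and the 10x platform. The counts hold all barcodes and are not normalized. The libraries held 48439860, 44798843, 77819179 and 37902916 UMIs, and T cell receptor files were not used here.

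Barcodes were filtered, gated and summed with Python 3.11.15, numpy 2.4.6, scipy 1.17.1 and pandas 2.3.3. No model was fitted, since each group has 1 expression sample and no library could be tied to it. Summed counts per gate were compared on genes with at least 20 UMIs, at 2-fold. A gate at 0 was set to 3 counts per library for a bound. Doublets were scored with Scrublet in scanpy 1.11.5, whose automatic threshold called 166, 0, 2 and 116 barcodes. With so few calls in C2 and C3 it was taken as failed there, and no doublet was removed from the values. The scripts were tested on simulated data.

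From the list of 58 genes, the rule named up to 4 genes per sub-list by median level and any past 2-fold in every library, then the 10 leading genes by lowest ratio and the 3 closest in pattern to each member. The members and lists were chosen with earlier results of these data known. Alternatives were thinning, other gates and depths, marker-free barcodes, doublet scores, shared barcodes and other folds. A few list genes and markers are not reported here, although they count in the gates and totals.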

Additional observations from a re-analysis of the deposited data

How the results depend on the processing

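No paired analysis was possible because no library could be tied to a sample and no test was run. The share of Cd4-only T barcodes with at least 2 of the 6 genes was 3.54%, 8.49%, 20.7% and 2.61% in C1 to C4 after thinning to 3000 UMIs, with shallower barcodes left out. With at least 2 Cd4 UMIs it was 21.1% in C2 and 40.9% in C3, and the summed level of the 6 genes was 316 CPM in C2, 607 CPM in C3 and 211 CPM in C4. Without Foxp3 barcodes the summed level was 158 CPM in C4, and 6 list genes were higher in C2 in place of 10. Thinning left 4 pairs in place of 8 in C1. At 4-fold, 3 members in place of 5 were higher in C2, where the Cxcr5 and Bcl6 ratios were 2.17 and 2.35. The share of all genes past 4-fold is not given here, so that count has no background beside it. Without Mki67 or Top2a barcodes, chosen after seeing the data, the summed level of the 6 genes in C3 and C4 was 652 and 182 CPM. List genes lower were then 2, 3 and 3 in C1, C2 and C4 in place of 5, 5 and 6. The share of all genes lower without those barcodes is not given here. For these alternatives only the numbers of genes past the fold were compared, so whether single genes kept, lost or reversed their call was not followed here. Without Foxp3 barcodes, a pair of list medians near 0 changed sign: that of the other-fates genes in C1 (-0.01 to 0.03 log2) and that of the factors in C2 (0.01 to -0.00). Thinning moved 40 of 72 detection shares out of their interval, and no other alternative moved more than 14 of 72 shares or levels. Tox2 in B barcodes of C4 was at 0.273 CPM without Mki67 or Top2a barcodes, against 3.38 CPM with them. The cause of these shifts was not tested, other than that thinning removes UMIs. Precision is lowest where few UMIs were counted, as for Il21 and Sostdc1 in C4, with 9 and 14 UMIs, and Cxcr5 in C1, with 5; the Cd4-only gate of C4 was nevertheless the one with the most UMIs.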
